A study of Mus musculus with 14 samples.

Results

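The contractile cytoskeleton of fibroblasts was followed here through 9 genes, chosen by name as members of the actin-myosin machinery: Acta2, Tagln, Cnn1, Cnn2, Myl9, Tpm1, Tpm2, Actn1 and Vcl. They are 9 of 21938 protein-coding genes on chromosomes 1 to 19, X and Y, and all 9 were found in the GENCODE M21 annotation. The choice was made with earlier results of these data known. For each gene the H3K4me1 sites were mapped over the gene and 50 kb on either side, which gave 257 of the 160144 sites in the deposited set. The assay was ChIP-seq of H3K4me1, the mono-methylation of lysine 4 of histone H3, in NG3, a single clone of immortalized mouse embryo fibroblasts (iMEF). In all groups, the control included, the floxed Ash2l alleles had lost exon 4 through a Cre-ER recombinase driven by the CAGG promoter, and the cells lived on human ASH2L fused to FKBP12-F36V, brought in by a lentivirus. The control received no dTAG, and 5 further groups received dTAG (dTAG-13 in the study's methods), which leads to degradation of the fusion protein, for 0.5, 2, 4, 8 or 16 h. Each of the 6 conditions had 2 replicates, and 2 input libraries came from the control and the 16 h time point.

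The deposited table is a single list of site positions over all samples, with no value for any library. A site may therefore come from the control, from the treated cells or from both, and its position alone cannot tell these apart. The paper's list of sites that changed significantly at each time point was not used here. The paper reports that sites gaining H3K4me1 after ASH2L loss lay nearly all at promoters. This limit therefore bears on the promoter layouts below. All values below are descriptions of 1 pooled set, without replicates, without a depth and without a test between conditions. The cell type was checked against markers, where a site within 1 kb of the transcription start site (TSS) stood for marking and not for expression. Of 15 fibroblast markers 13 had such a site, all but Col3a1 and Lum, compared with 1 of 7 markers of skeletal or cardiac muscle and 0 of 5 blood markers. Over all protein-coding genes the share with such a site was 63.9%. Epithelial markers had one in 5 of 6 cases and endothelial markers in 3 of 4. The count therefore did not set the fibroblast list apart from these lists. The median share of the gene under sites was 36.9% for the fibroblast markers and 7.20% for the epithelial markers. Each of the other lists also had a lower median than the fibroblast list. These differences were not tested.

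Fibroblasts pull on their surroundings with bundles of actin filaments on which non-muscle myosin slides, and integrin adhesions anchor these bundles in the membrane. Genes of this machinery are classical targets of serum response factor (SRF), which binds the CArG box and is switched on by actin-sensing MRTF cofactors. Smooth muscle cells and activated fibroblasts are known for high levels of the same genes. H3K4me1 is commonly found at enhancers and on both sides of active promoters, where the TSS itself often carries H3K4me3 instead.

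In all 9 genes a site of H3K4me1 lay no more than 1 kb from the most upstream TSS, which was the case for 63.9% of protein-coding genes. The most upstream TSS itself lay under a site in 6 genes, Acta2, Tagln, Cnn1, Cnn2, Myl9 and Tpm2, compared with 39.5% of protein-coding genes. In the other 3 genes, Tpm1, Actn1 and Vcl, the TSS was free of sites and had a site on either side within 1 kb, a layout found at 13.7% of protein-coding genes. The layout was also set beside the CpG island, a stretch rich in CpG dinucleotides that many promoters have. An island lay within 1 kb of the TSS in 5 members, Cnn2, Tpm1, Tpm2, Actn1 and Vcl, and in 55.0% of protein-coding genes. The 4 members without an island, Acta2, Tagln, Cnn1 and Myl9, all had their TSS under a site, compared with 18.6% of the genes without an island. Of the 5 members with an island, 2 had their TSS under a site, Cnn2 and Tpm2, compared with 56.6% of the genes with one. Over all protein-coding genes a TSS under a site was thus more frequent with an island than without, unlike among the members. The members are few, and their difference by island was not tested.

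**Figure D1:**
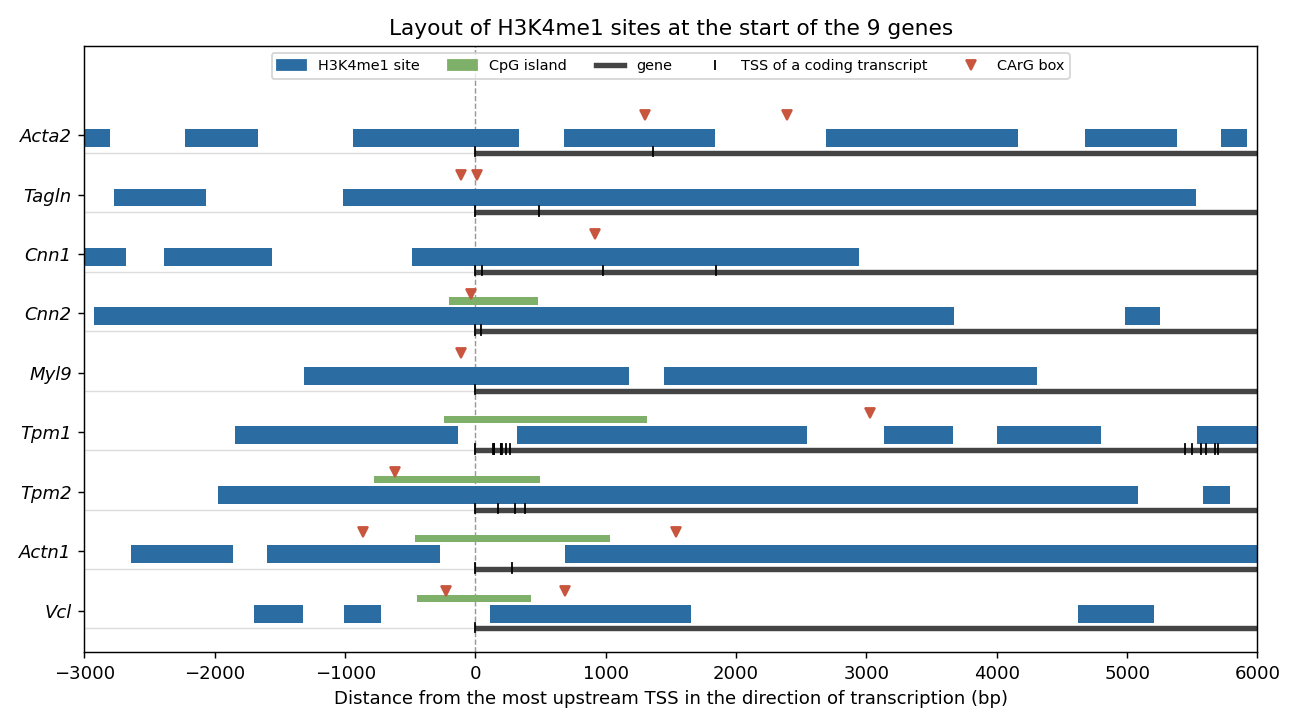
H3K4me1 sites (blue), CpG islands (green), TSSs of coding transcripts (black ticks) and CArG boxes (red triangles) from -3000 to 6000 bp around the most upstream TSS of each of the 9 genes (horizontal axis, bp in the direction of transcription). A site runs across the TSS in 6 genes, and in Tpm1, Actn1 and Vcl the TSS sits in a gap of 454 to 959 bp between sites that overlaps a CpG island.

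Acta2, the smooth muscle actin of activated fibroblasts (ENSMUSG00000035783.9, minus strand), lies at chr19:34241090-34255590. A site of 1270 bp ran from -936 to 333 bp of its TSS, and a second TSS at 1360 bp in the gene was covered by a further site of 1155 bp. Acta2 was thus marked by many short sites and not by 1 wide site. The 3 sites that touched its first intron of 2713 bp covered 55.6% of it, and 7 sites with gaps under 1 kb formed a stretch of 9045 bp from -3122 to 5922 bp. The widest site over the gene measured 1806 bp and lay in a later intron.

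Tagln, which encodes the actin-bundling protein transgelin (SM22; ENSMUSG00000032085.5, minus strand), lies at chr9:45929619-45936058. It was covered by a single site of 6546 bp from -1018 to 5527 bp of the TSS. This site held the whole first intron of 4060 bp and took 85.8% of the gene, the largest share of the 9. The end of the gene, past 5527 bp, was free of sites.

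The calponins, which bind actin and damp the myosin motor, differed in this respect. Cnn1 (ENSMUSG00000001349.5, plus strand, chr9:22099216-22109630) had 1 site of 3430 bp from -484 to 2945 bp, which covered all 4 of its coding TSSs and the first intron of 1722 bp. No other site touched Cnn1, so 28.3% of the gene was covered and its 3′ part was bare. The widest site in the Cnn1 window measured 7054 bp and belonged to the neighbour Ecsit, whose TSS it held. Cnn2 (ENSMUSG00000004665.10, plus strand, chr10:79988584-79996062) had a site of 6596 bp from -2925 to 3670 bp, across both of its TSSs, its CpG island of 685 bp and its first intron of 2619 bp. A further 3 short sites of 247 to 288 bp lay nearer to its 3′ end, and 59.8% of the gene was covered.

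Myl9, the regulatory light chain whose phosphorylation starts contraction in smooth muscle (ENSMUSG00000067818.6, plus strand), lies at chr2:156775420-156781658. A pair of sites covered its 5′ part, of 2491 bp from -1314 to 1176 bp and of 2865 bp from 1447 to 4311 bp. Together they covered 91.0% of the first intron of 3012 bp and 64.8% of the gene. The widest site in its window, of 6476 bp, lay far upstream within Dlgap4. Myl9 had the fewest sites of the 9 windows, 11, and a bare stretch of 34315 bp that began at 4312 bp.

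The tropomyosins, which lie along the actin filament and control access of myosin and cofilin, had different promoter layouts. At Tpm2 (ENSMUSG00000028464.16, minus strand, chr4:43514711-43523765) a site of 7061 bp from -1977 to 5083 bp spanned all 4 coding TSSs and the island of 1271 bp. A second site of 2205 bp lay at the 3′ end, and 76.2% of the gene was covered. At Tpm1 (ENSMUSG00000032366.15, minus strand, chr9:67022590-67049406) the TSS lay in a gap of 454 bp between sites from -1844 to -135 bp and from 320 to 2544 bp. Tpm1 has 16 coding TSSs in 2 clusters, since short and long tropomyosins start at different promoters. All 10 TSSs of the first cluster, from 0 to 263 bp, fell into this gap. Of the 6 TSSs of the second cluster, from 5444 to 5697 bp, 4 lay under a site of 700 bp and the 2 most upstream ones in a gap of 741 bp. Further sites of 5658 and 4277 bp lay in later introns, 72.1% of the gene was covered, and no stretch of its window longer than 8348 bp was bare.

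Actn1 encodes α-actinin, which cross-links actin filaments and ties them to adhesions (ENSMUSG00000015143.15, minus strand, chr12:80167547-80260371). Its TSS lay in a gap of 959 bp between sites from -1599 to -275 bp and from 685 to 17243 bp. The first intron, of 50513 bp, was the longest of the 9 and was nearly filled, with 9 sites over 47729 bp or 94.5% of it. Among these sites were 3 of over 5 kb, with widths of 17242, 16559 and 7636 bp. The site of 17242 bp, at chr12:80216225-80233466, was the widest of all sites over the members, and 99.9% of protein-coding genes had a narrower widest site over the gene than Actn1. When sites less than 1 kb apart were joined, 13 sites formed a stretch of 61398 bp from -2642 to 58755 bp.

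Vcl, which encodes vinculin, the protein that links talin in adhesions to actin (ENSMUSG00000021823.10, plus strand, chr14:20929398-21033676), was the opposite case. It is the longest gene of the 9, at 104279 bp, and had the most sites, 65 in its window, but no wide one. Its TSS lay in a gap of 831 bp between sites from -1009 to -724 bp and from 108 to 1652 bp. The first intron of 37849 bp held 18 sites, which covered 28.6% of it, and the widest site over the gene measured 1545 bp. A second coding TSS at 92605 bp was free of sites, and 18.6% of the gene was covered, the smallest share of the 9.

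**Figure D2:**
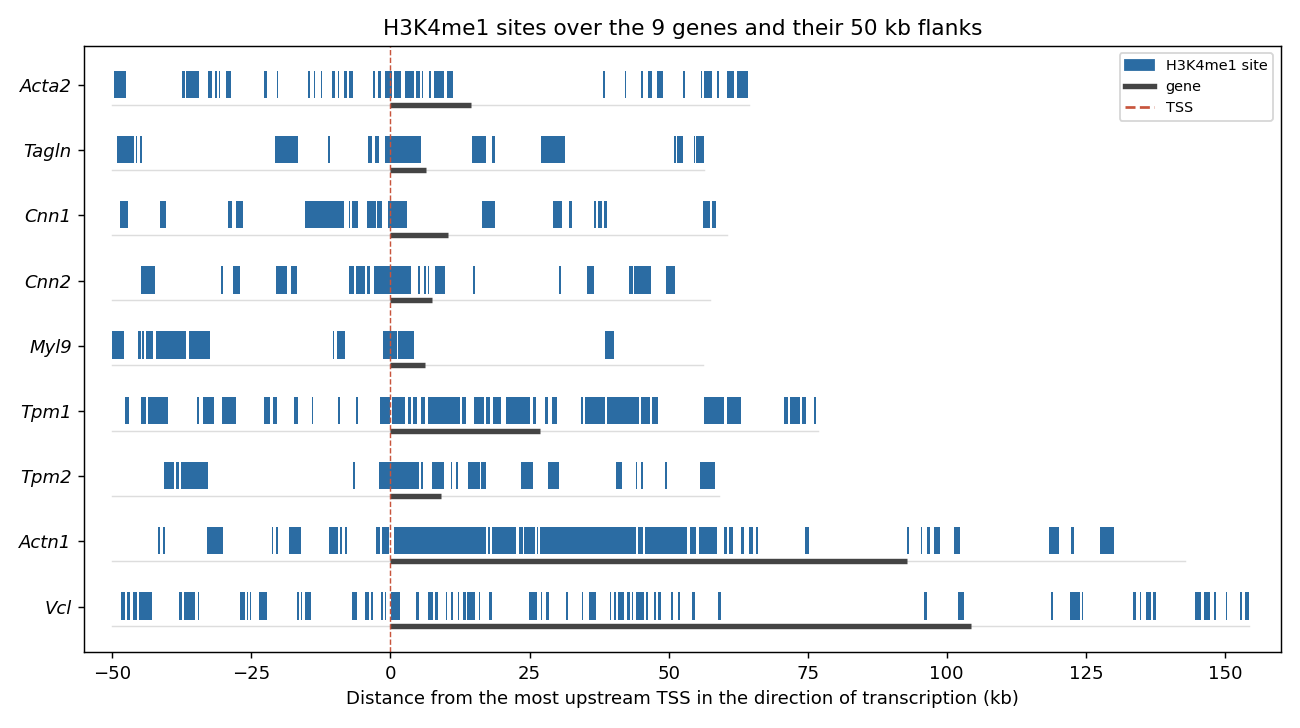
H3K4me1 sites (blue) over each of the 9 genes (dark bars) and 50 kb on either side (grey lines), by distance from the most upstream TSS (dashed line) in kb in the direction of transcription. Actn1 is nearly filled by sites of up to 17242 bp from 685 bp past its TSS through the first intron. Vcl, of similar length, carries many sites of at most 1545 bp over the gene.

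All 9 members had a site in the first intron of their principal transcript, compared with 69.4% of protein-coding genes that have an intron. In 8 of them a site was also centred in it and at Tpm2 the site of 7061 bp that ran through the intron was centred further on. The intron was covered completely in 5 members, Tagln, Cnn1, Cnn2, Tpm1 and Tpm2, and the median covered share was 100%, compared with 15.3% over all genes. These complete introns measured 440 to 4060 bp, so that a single site could hold each of them. Sites of at least 5 kb over the gene were found in 5 members, Tagln, Cnn2, Tpm1, Tpm2 and Actn1, compared with 5.13% of protein-coding genes. The remaining 4, Acta2, Cnn1, Myl9 and Vcl, had widest sites over the gene of 1806, 3430, 2865 and 1545 bp.

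The site bases in the gene and its 50 kb flanks ranged from 21924 bp at Myl9 to 77271 bp at Actn1. The median of the 9 was 27965 bp (order-statistic interval 26665 to 58131 bp, ranks 2 to 8), and 87.7% of protein-coding genes had fewer. The coverage of 96.1% of such an interval holds for random draws only. The 9 genes were chosen by name, so this interval and the one below show their spread. Long genes have larger windows, so the share of the window was taken as well. It ranged from 20.5% at Vcl to 45.8% at Tpm1, with a median of 25.1%, compared with 7.86% over all genes, and 93.0% of genes lay below the median of the 9. Acta2 with 24.4%, Cnn1 with 24.4%, Tagln with 25.1%, Cnn2 with 25.7% and Tpm2 with 26.7% lay close together, whereas Actn1 with 40.1% and Tpm1 stood above them. The genes themselves were covered to a median of 62.5% (interval 28.3 to 76.2%), compared with 6.47% over all genes. Of the 5000 bp on each side of the TSS, the downstream side had a median of 3686 bp covered and the upstream side 1977 bp, compared with 905 and 384 bp over all genes. The downstream side was the more covered in 8 members, by little at Vcl (1924 and 1884 bp) and Cnn1 (2945 and 2815 bp), and Cnn2 went the other way (3686 and 3888 bp).

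**Figure D3:**
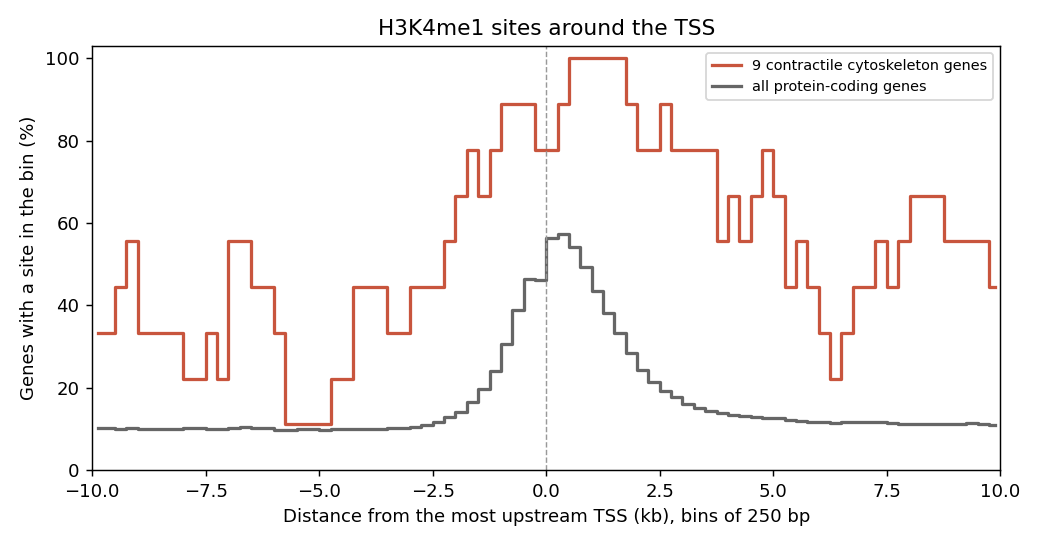
Share of genes (vertical axis, %) with an H3K4me1 site in bins of 250 bp within 10 kb of the most upstream TSS, for the 9 genes (red) and all protein-coding genes (grey). From 500 to 1750 bp downstream 9 of 9 genes have a site in each bin, and 7 of 9 have one in the bin that starts at the TSS. Over all genes the share peaks at 57.3% in the bin that starts at 250 bp.

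Most of the sites were centred outside the genes, where most of the window bases also lie (900000 of 1178050 bp). Sites covered 23.3% of the flank bases and 45.9% of the gene bases. By their centres, 100 of the 257 sites lay in the upstream flanks and 79 in the downstream flanks, 33 in first introns, 41 in later introns and 4 in exons. The upstream count includes the sites across the TSSs of Acta2 and Myl9. The flanks are crowded with other genes, and 81 of the 179 flank sites overlapped another protein-coding gene, 11 of them its most upstream TSS. At Tagln all 14 flank sites overlapped another gene, among them sites of 4126 bp at Sidt2 and 4189 bp at the shared start of Pcsk7 and Rnf214. At Actn1 none of 19 did, and at Tpm1 2 of 26. The flanks of Tpm1 thus held sites that overlapped no protein-coding gene, the widest of which was 5707 bp from 38930 to 44636 bp, downstream of the gene. At Myl9 5 sites within Dlgap4, from -45307 to -32473 bp, formed a stretch of 12835 bp. Near Tpm2 the gene of talin, Tln1, whose product binds vinculin, carried a site of 4692 bp. Sites of the members' windows had a median width of 721 bp, compared with 603 bp over all chromosomes, and 11 of them (4.28%) were at least 5 kb wide, compared with 0.937%. Not all of these wide sites lay over a member. Those of 7054 bp at Ecsit, of 6476 and 5313 bp within Dlgap4 and of 5707 bp downstream of Tpm1 did not.

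The CArG box, the site of SRF, was searched in the GRCm38.p6 sequence of the 9 windows as CC, 6 bases of A or T, and GG, which is its own reverse complement, so that both strands are covered. A match is a description of the sequence and not a bound site. Within 1 kb of the most upstream TSS, 9 exact boxes were found in 7 members. The share of all protein-coding genes with a box within this distance was not counted. Of the 9 boxes, 8 lay under H3K4me1 sites. Sites covered 82.4% of the bases within the same distance, so this count is close to the coverage. The exception was the box of Vcl at -227 bp, in the gap between its sites. In the 250 bp before the TSS, 4 members had a box, Tagln, Cnn2, Myl9 and Vcl, compared with 1.33% of protein-coding genes. These 4 promoters are shown because the box stands in the same window as the layout described above. In the first 3 all 250 bases lay under a site, and in Vcl 0 did. The capitals mark the CArG box, each sequence is read 5′ to 3′ on the strand of the gene, and the last base is the one before the TSS.
Tagln, chr9:45936059-45936308, minus strand: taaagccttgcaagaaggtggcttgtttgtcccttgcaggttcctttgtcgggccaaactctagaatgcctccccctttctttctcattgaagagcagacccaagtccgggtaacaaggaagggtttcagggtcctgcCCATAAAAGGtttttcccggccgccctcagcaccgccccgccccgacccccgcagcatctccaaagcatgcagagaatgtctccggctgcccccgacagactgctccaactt
Cnn2, chr10:79988334-79988583, plus strand: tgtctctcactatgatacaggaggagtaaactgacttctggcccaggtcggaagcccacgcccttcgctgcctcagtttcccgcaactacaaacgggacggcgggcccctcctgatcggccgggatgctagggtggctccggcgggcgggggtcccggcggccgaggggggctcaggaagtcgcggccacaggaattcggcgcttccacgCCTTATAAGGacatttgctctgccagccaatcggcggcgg
Myl9, chr2:156775170-156775419, plus strand: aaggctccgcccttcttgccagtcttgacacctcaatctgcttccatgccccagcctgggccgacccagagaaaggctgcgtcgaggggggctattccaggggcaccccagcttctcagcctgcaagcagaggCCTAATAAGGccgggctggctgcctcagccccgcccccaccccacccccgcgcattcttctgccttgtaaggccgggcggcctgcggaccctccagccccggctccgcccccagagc
Vcl, chr14:20929148-20929397, plus strand: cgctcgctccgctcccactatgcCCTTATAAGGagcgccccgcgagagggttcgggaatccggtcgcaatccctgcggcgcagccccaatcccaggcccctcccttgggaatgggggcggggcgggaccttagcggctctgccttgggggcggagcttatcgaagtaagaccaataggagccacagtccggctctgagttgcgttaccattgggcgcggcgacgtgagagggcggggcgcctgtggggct

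The other exact boxes within 1 kb of the most upstream TSS lay in the first exon of Tagln at 11 bp, in the first introns of Cnn1 at 910 bp and Vcl at 681 bp, and upstream of Tpm2 at -623 bp and Actn1 at -865 bp. All 5 lay under sites. Acta2 and Tpm1 had no exact box within this distance. Before its second TSS, at 1360 bp, Acta2 had an exact box in the first intron at 1293 bp, under the site of 1155 bp. A search with 1 mismatch allowed, within 250 bp of the TSS, was run after the exact boxes were seen. Acta2 then had boxes at 133 and 183 bp, both under its promoter site, and Myl9 a second box at -55 bp, under a site. Tpm1 had boxes at -28 and 113 bp, both in its site-free gap. A looser match occurs more often, and its share over all protein-coding genes was not counted. The RefSeq TSS of Acta2 lies 217 bp downstream of the most upstream GENCODE TSS, so that both Acta2 boxes precede it. Stretches of 30 bases show boxes near the TSS of the 5 genes with no exact box in the 250 bp before it, and the box of Tagln past its TSS, again with the box in capitals and on the strand of the gene.
Acta2, chr19:34255438-34255467, 1 mismatch: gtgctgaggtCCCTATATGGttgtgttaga
Acta2, chr19:34255388-34255417, 1 mismatch: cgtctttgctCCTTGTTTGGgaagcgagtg
Tagln, chr9:45936028-45936057: gtgtctttccCCAAATATGGagcctgtgtg
Cnn1, chr9:22100116-22100145: agccgccgcgCCTTATAAGGcggccttggg
Tpm1, chr9:67049415-67049444, 1 mismatch: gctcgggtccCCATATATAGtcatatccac
Tpm1, chr9:67049274-67049303, 1 mismatch: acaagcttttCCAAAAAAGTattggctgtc
Tpm2, chr4:43524369-43524398: gggaaacatcCCAAAAAAGGgcagaaaaga
Actn1, chr12:80261217-80261246: tacaggtagaCCATTTTAGGgctcttccta
Within 1 kb of the TSS the same box of CC, TTATAA and GG was found at Cnn2 and Cnn1, under sites, and at Vcl, between sites. Farther out it stood under sites at Vcl, at -3396 bp, and at Acta2, at -10253 bp.

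Over the whole windows 84 exact boxes were found, and 35 of them or 41.7% (exact binomial 95% interval 31.0 to 52.9%) lay under sites, which covered 28.7% of the window bases. Actn1 held 11 of these 35. Without Actn1 the share was 34.8% (23.7 to 47.2%), with 26.4% of the bases covered, and the intervals cover counting error only. Within the genes 13 of 25 boxes lay under sites, which covered 45.9% of the bases there, and in the flanks 22 of 59, with 23.3% of the bases covered. A TATAAA in the 50 bp before the TSS was found in 0 of the 9 members and in 3.25% of protein-coding genes. The core GGAATG of TEAD factors, the partners of YAP, was found on either strand in the 250 bp before the TSS of 2 members, Acta2 at -65 bp and Vcl at -143 bp, and in 11.5% of protein-coding genes.

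Other genes of the same families and pathway were taken from lists of gene names. Like the members, these lists were chosen with earlier results of these data known. The 11 paralogs of non-muscle or broad use were covered much like the members, with a median of 62.5% of the gene and 23.1% of the window under sites. Of these, 10 had a site within 1 kb of the TSS and 6 had the TSS under a site. The widest sites were at Actn4 with 12278 bp, the light chain gene Myl6 with 6900 bp and Tpm3 with 6506 bp, and Tpm3 was also the gene with no site at its most upstream TSS. As at Actn1, the first intron of Actn4 held 9 sites, which covered 92.0% of it. Among 14 paralogs of striated muscle, gut muscle or neurons the medians were 3.14% of the gene and 9.83% of the window, and 9 had a site at the promoter. The 5 without one were the cardiac actin gene Actc1, the light chain genes Myl1, Myl2 and Myl7, and Actn2, the α-actinin gene of striated muscle. None of the 14 had a site of 5 kb over the gene, and the widest were 3037 bp at Ctnna3, 2665 bp at Actn3 and 2579 bp at Myl4. The difference between the lists was not tested, since genes are not replicates.

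The 17 genes of the motor, its kinases and the adhesion partners all had a promoter site, and 8 of them had a site of at least 5 kb. The non-muscle myosin heavy chain gene Myh9 carried a site of 50106 bp, the widest of the whole set, followed in this list by Zyx (zyxin) with 9830 bp and Tns1 (tensin) with 9251 bp. Among 7 smooth muscle differentiation genes the median share of the gene under sites was 9.26%, and the widest sites were 5688 bp at Lmod1, 4917 bp at Smtn and 3197 bp at Synpo2. Srf and its 3 cofactor genes all had a promoter site, with widest sites of 8133 bp at Mrtfa, 5014 bp at Srf and 2708 bp at Mrtfb. Compared with other gene families, the members were covered over the gene to a median of 62.5%, the 79 cytosolic ribosomal protein genes to 72.8%, the 44 collagen genes to 6.54% and the 49 keratin genes to 2.33%. The ribosomal protein genes, which are short, had a site of 5 kb in 5 of 79 cases and the flanked layout in 47 of 79, whereas 5 of 9 and 3 of 9 members had these.

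**Figure D4:**
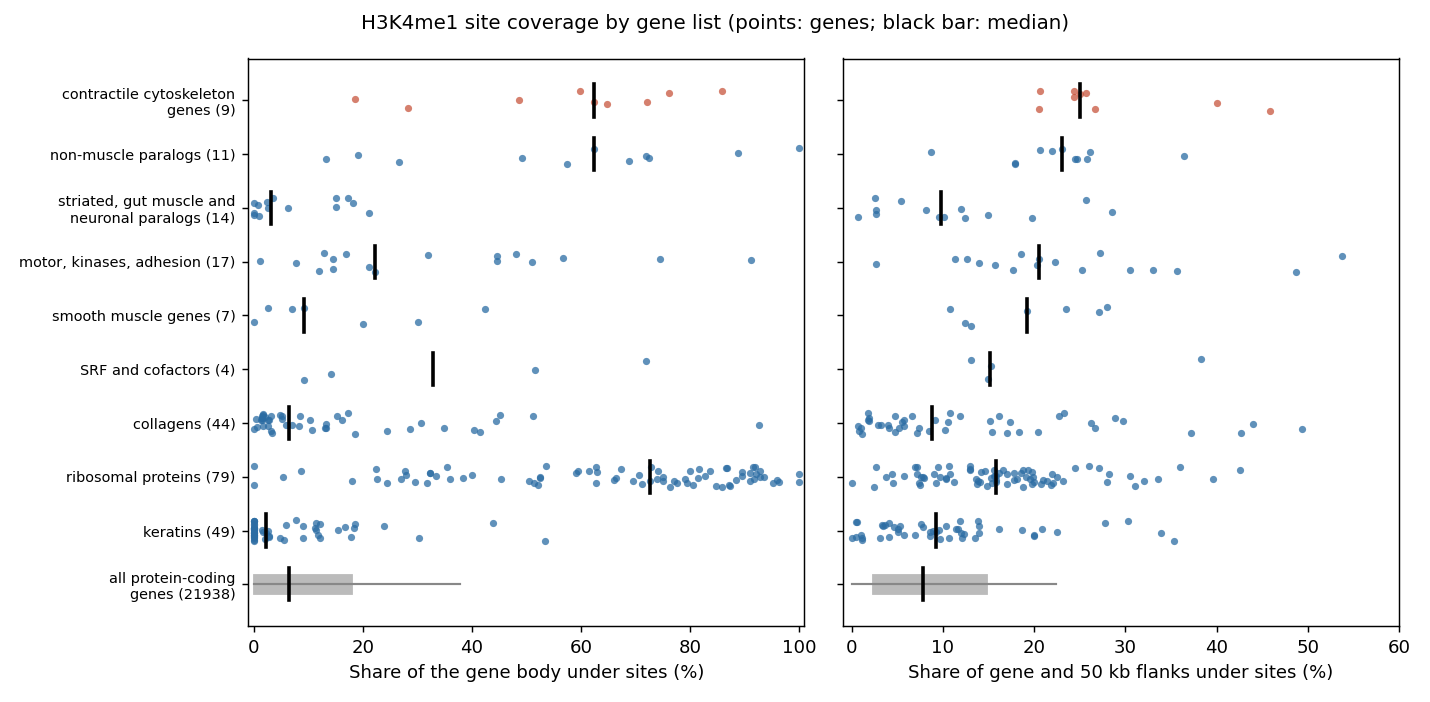
Share of the gene (left axis, %) and of the gene with 50 kb flanks (right axis, %) under H3K4me1 sites, with 1 point per gene and a black bar at the median of each list; for all protein-coding genes the box spans the quartiles and the line the 10th to 90th percentile. The 9 contractile cytoskeleton genes lie between 18.6 and 85.8% of the gene, near the non-muscle paralogs and above the striated muscle, gut muscle and neuronal paralogs by their medians.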

How the data were processed

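H3K4me1 ChIP-seq reads were trimmed by the authors with Trim Galore, aligned to mm10 with BWA, filtered with samtools and merged with Picard, and broad peaks were called with MACS2. Versions and thresholds are not given in the sources used here. The deposited values are positions in bases, and other values per sample, the depth included, were not analysed here. The authors' DESeq2 results over time were not used.

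Positions were converted to count from 1 and compared with GRCm38.p6 and GENCODE M21 (the paper names another release) in Python 3.11.15 with numpy 2.4.6 and scipy 1.17.1. No site reached beyond a chromosome end, and 36 sites on scaffolds were left out. An overlap of 1 bp counted. Distances run from the most upstream TSS in the direction of transcription. For CpG islands, repeats were masked and a CpG scored 17 and any other base -1. Segments longer than 200 bp were kept if GC reached 50% and observed over expected CpG exceeded 0.6. The principal transcript gave the first intron. Functions were tested on simulated data. Percentages of genes below a value count all 21938 protein-coding genes, most with other lengths and neighbours. From each list the 3 genes with the widest site over the gene and those without a promoter site are named. The members and lists were chosen with earlier results of these data known.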

Additional observations from a re-analysis of the deposited data

How the results depend on the processing

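Of 39 alternatives to 9 results, 27 stayed within the interval of the value or within 1.5 times the count. This is a rule for sorting and not a test. After seeing the data, 4 of the 39 were chosen. The number of members with the TSS under a site was 6, 8 with any annotated TSS, 9 with sites less than 1 kb apart joined and 5 of 8 with the RefSeq TSSs, which lack Tagln. The 257 sites became 164 with flanks of 25 kb, 392 with 100 kb, 163 with sites of at least 500 bp and 126 after joining. The median of 27965 site bases became 6900 in the gene alone, 18435 with 25 kb, 56946 with 100 kb and 26272 with sites of at least 500 bp, and the share of 25.1% became 62.5% in the gene alone. The median widest site in the gene and its 50 kb flanks, 6546 bp, became 5658 bp over the gene alone and 9500 bp after joining. The share of CArG boxes under sites fell from 41.7% to 29.3% when 1 mismatch was allowed, close to the 28.7% of bases covered; the cause was not tested. The 63.9% of genes with a promoter site became 67.8% with any TSS and 59.6% with sites of at least 500 bp. No paired analysis was possible because the set gives positions only. No replicate could be left out either, and no depth, signal or detection limit can be given.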
